A study of Mus musculus with 2 samples.

Results

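Itpr1 on mouse chromosome 6 carried a group of 7 Msgn1 peaks, all in the first part of the gene. They were chosen by position, as the peaks of the deposited list with a midpoint inside the gene, at about 108163 to 108502 kb of mm9, or within 100 kb of either end. This choice took 7 of the 4087 listed peaks (0.171%) and 7 of the 224 on chromosome 6 (3.13%). The locus was picked because its peaks stood close together, so their number and spacing, and the scores and widths from the same comparison, are a description of the list and were not tested.

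The list came from chromatin immunoprecipitation and sequencing (ChIP-seq) of A2lox FMsgn1 embryonic stem cells (strain C57BL/6 in the labels), in which FLAG-tagged Msgn1 is made when doxycycline is given. Cells formed embryoid bodies for 2 days, received doxycycline at 1 ug/ml and were fixed 36 h later. The FLAG ChIP library (DNA recovered with anti-Flag M2) was compared with a library of input DNA, and both are labelled as induced, so no uninduced cells served as a control. There was 1 library per group from 1 engineered line, so no value has a replicate error, and the binding is that of a tagged factor switched on by a drug, not of the endogenous protein. The stem cells had been grown on mouse feeder fibroblasts, and no marker of cell type can be read from a peak list. The sequencing depth is unknown, since the list gives no read counts.

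Itpr1 encodes the type 1 inositol trisphosphate receptor, a calcium channel in the membrane of the endoplasmic reticulum. Ligands acting on receptors at the cell surface activate phospholipase C, which produces inositol trisphosphate, and the channel then releases stored calcium into the cytoplasm. The receptor is best known for its abundance in Purkinje cells of the cerebellum. Msgn1, or mesogenin 1, regulates transcription in the presomitic mesoderm, from which the somites form. It belongs to the basic helix-loop-helix class, whose members recognise short DNA elements called E-boxes. The related channel genes Itpr2 and Itpr3, the ryanodine receptors and the other calcium release genes could not be set against the peaks, because no mm9 annotation was used here. Exons, introns and E-boxes of the Itpr1 peaks were likewise not analysed here, and no sequence is shown.

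The peaks are numbered 1 to 7 along the gene, from the end nearest to its start. Each is given by its place, its distance from the gene start, its width and the authors' score, which ranks peaks within the list and has no stated scale. Distances from the gene start refer to midpoints and rest on a gene start known to about 1 kb. The gene start was taken as the lower coordinate from general knowledge of the gene, not from an annotation used here, and each distance into the gene depends on that.

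Peak 1 lay closest to the gene start, at chr6:108170077-108170907, with its midpoint 7.49 kb into the gene. It was 831 bp wide and scored 96.4, at rank 1258 of the 4087 peaks. Peak 2 followed after a gap of 12.05 kb, at chr6:108182955-108183968 and 20.5 kb into the gene. It had the lowest score of the group, 63.5 (rank 2593), yet at 1014 bp it was wider than 94.9% of the list. Peaks 1 and 2 were therefore each more than 12 kb from the nearest listed peak.

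Peaks 3 to 6 formed the dense part of the group, at chr6:108197824-108210692, a stretch of 12.9 kb of which the peaks covered 29.4%. Peak 3, at chr6:108197824-108198508, was the narrowest of the 7 with 685 bp and scored 81.6 (rank 1656). Its midpoint was 35.2 kb into the gene, and it lay 13.9 kb after peak 2 and 3.71 kb before peak 4. Peak 4, at chr6:108202221-108203248, was 1028 bp wide and scored 158 (rank 515). Peak 5, at chr6:108203493-108204210, was 718 bp wide and scored 216.0 (rank 267). These neighbours had midpoints 39.7 and 40.9 kb into the gene and were the closest pair of the group, with 244 bp between them. A gap that short or shorter separated 25 of the 4067 neighbouring pairs of the whole list. Together they took up 1990 bp, so the pair would read as a single wide peak if the space between were closed. Peak 6 came 5.13 kb later, at chr6:108209341-108210692 and 47.0 kb into the gene. It scored 134 (rank 668) and was 1352 bp wide, the 25th widest peak of the list.

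Peak 7 was the highest of the group and lay apart from it, at chr6:108259113-108260520. Its midpoint was 96.8 kb into the gene, and 48.4 kb without a peak separated it from peak 6. It scored 515, at rank 23 of the whole list, and was the highest-scoring of the 224 peaks on chromosome 6, where the next scored 499 and 411. It was also the widest of the 7 with 1408 bp, at rank 18 of the list by width. The strongest peak in Itpr1 was thus not the one nearest to the gene start but the one farthest from it.

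**Figure D1:**
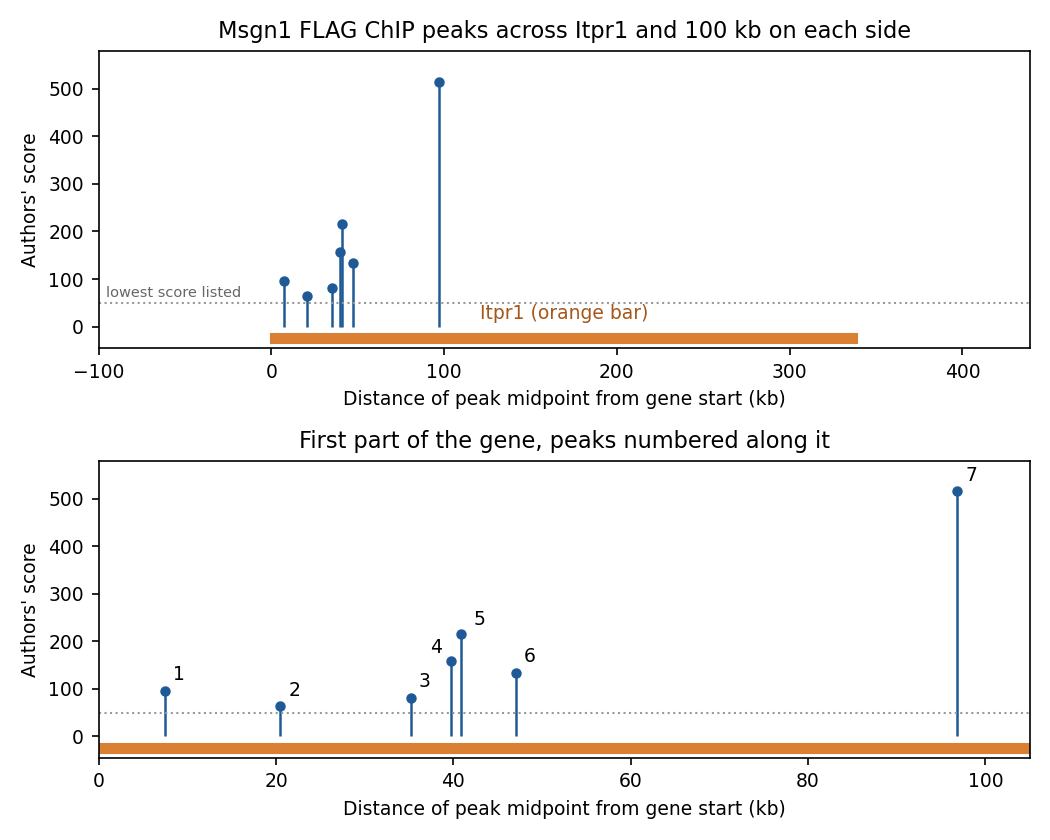
Peaks across Itpr1 and 100 kb on each side (top) and in the first part of the gene (bottom), with the distance of each midpoint from the gene start in kb on the x axis and the authors' score on the y axis. Each stem is a peak, the orange bar is the gene and the dotted line is the lowest score of the list. Peaks 1 to 6 lie within 47.0 kb of the gene start, peak 7 stands apart at 96.8 kb with a score of 515, and the rest of the gene and both flanks hold none.

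All 7 midpoints fell inside the gene interval, and neither 100 kb flank held a peak. With the gene divided into 4 equal stretches of 84.8 kb, there were 6 peaks in the first, 1 in the second, and 0 in the third and the fourth. The group spanned 90.4 kb from the start of peak 1 to the end of peak 7, or 26.7% of the gene. The first peak began 7.08 kb after the gene start, so the start itself had no listed peak on it. From the end of peak 7 to the gene end, 241.5 kb (71.2% of the gene) held no listed peak. The peaks covered 7036 bp in all, or 2.08% of the gene. A place without a listed peak may not have reached the authors' limit, or may have been lost in alignment or filtering, for which nothing is stated. It says nothing about binding below that limit.

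Beyond the window, the nearest listed peaks were far away on both sides. Upstream the nearest was chr6:106490965-106491571, with a score of 58.6 and a width of 607 bp, 1679 kb before peak 1. Downstream it was chr6:112457705-112458221, with a score of 51.7 and a width of 517 bp, 4197 kb after peak 7. Their midpoints lay 1572 and 3856 kb outside the window, whereas peaks 1 and 7 lay 107.5 and 342 kb inside its ends, so no peak came near the limit that chose the members. The outside peaks scored lower and were narrower than each of the 7. In the stretch of 5966 kb between them, the 7 Itpr1 peaks were the sole listed peaks.

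The downstream gap was of a length uncommon in the list, and the upstream gap less so. Of the 4024 gaps between neighbouring autosomal peaks, 53 (1.32%) were at least as long as the downstream gap and 329 (8.18%) at least as long as the upstream gap. On chromosome 6 alone, 4 and 25 of 223 gaps were. The neighbouring protein-coding genes, by their order in the RefSeq table of GRCm38.p6, are Sumf1 and Setmar before Itpr1 and Bhlhe40 and Arl8b after it. Sumf1 encodes the enzyme that activates sulfatases, and Bhlhe40 encodes another basic helix-loop-helix factor. The non-coding genes Gm35165, Mir7661 and Gm44040 overlap Itpr1 in that table, and their place relative to the peaks was not analysed here.

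Peak density at the locus followed from this layout. The 539 kb window held 13.0 peaks per Mb, while chromosome 6 as a whole had 1.54 per Mb from its first to its last peak. With a window of 539 kb centred on every listed peak, the windows of the 7 Itpr1 peaks each held those 7 and no other. The median over the list was 2 peaks, and 1167 peaks (28.6%) had no other in their window. As many as 7 or more were found around 104 listed peaks (2.54%), and more than 7 around 40 peaks on 9 chromosomes, with 9 at most. With 100 kb windows the order was different. The window centred on peak 6 held all 7, those centred on peaks 1 to 5 held 6 each, and the one on peak 7 held 2. No listed peak outside Itpr1 had more than 6 in its 100 kb window, where the median was 1. Among the Itpr1 windows, just the one centred on peak 6 held more than 6. It took in peak 7 close to its edge, with their midpoints at 47.0 and 96.8 kb into the gene. The rank of the locus thus depended on the window: 1st at 100 kb, 41st at 539 kb and 248th at 1000 kb. The locus was chosen for peaks close together and its run spans 90.4 kb, so the count at 100 kb is no separate support.

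The scores of the Itpr1 peaks ran from 63.5 to 515 with a median of 134. The list as a whole had a median of 72.8 and its upper quartile was 108, and the median on chromosome 6 was 72.6. In the order of the gene, peaks 1, 2 and 3 scored 96.4, 63.5 and 81.6, all under 100. Peaks 4, 5, 6 and 7 scored 158, 216.0, 134 and 515, all above it. Thus 4 of the 7 scored at least 100, where 28.6% of all listed peaks did, as did 57 of the 224 on chromosome 6 (25.4%). Peak 2 was the sole member under the median of the list. By the same scores, peaks 7, 5, 4 and 6 ranked 1st, 8th, 31st and 36th of the 224 peaks on chromosome 6. The higher scores lay farther into the gene: Spearman's rho of score and position was 0.786 over the 7 peaks. These points share the same pair of libraries and the same peak calling, and a rank order over so few places is a description.

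Widths ran from 685 to 1408 bp with a median of 1014 bp, and all 7 peaks were wider than the list median of 678 bp, peak 3 by a few bases. At least 1000 bp was reached by peaks 2, 4, 6 and 7, or 4 of 7, where 5.77% of the list reached it. Score and width did not follow the same order. Peak 2 combined the lowest score with the fourth widest extent, and peak 5 combined the second highest score with a width of 718 bp. The rank correlation (Spearman's rho) between these measures was 0.464 over the 7 peaks, and also 0.464 over the whole list.

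Since wider peaks scored higher in the list, each width was set against those of listed peaks in the same band of scores. The median width was 633 bp among the 2919 peaks scoring under 100, and peaks 1, 2 and 3 were wider than 86.2%, 98.6% and 62.6% of them. Among the 865 peaks from 100 up to 200 the median was 801 bp, and peaks 4 and 6 exceeded 92.4% and 99.5%. Peak 7 was wider than 91.1% of the 56 peaks at 400 or more, whose median was 976 bp. Peak 5 was the exception: it was wider than 20.6% of the 247 peaks from 200 up to 400, whose median was 874 bp. The bands were broad, and at 216.0 peak 5 scored near the lower end of its band. At 96.4 peak 1 scored near the upper end of its own, so the bands do not fully remove the link between width and score. The gap of 244 bp was shared by peaks 4 and 5, of which peak 4 was wide for its band. Whether peaks 4 and 5 are separate places of binding was not tested.

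**Figure D2:**
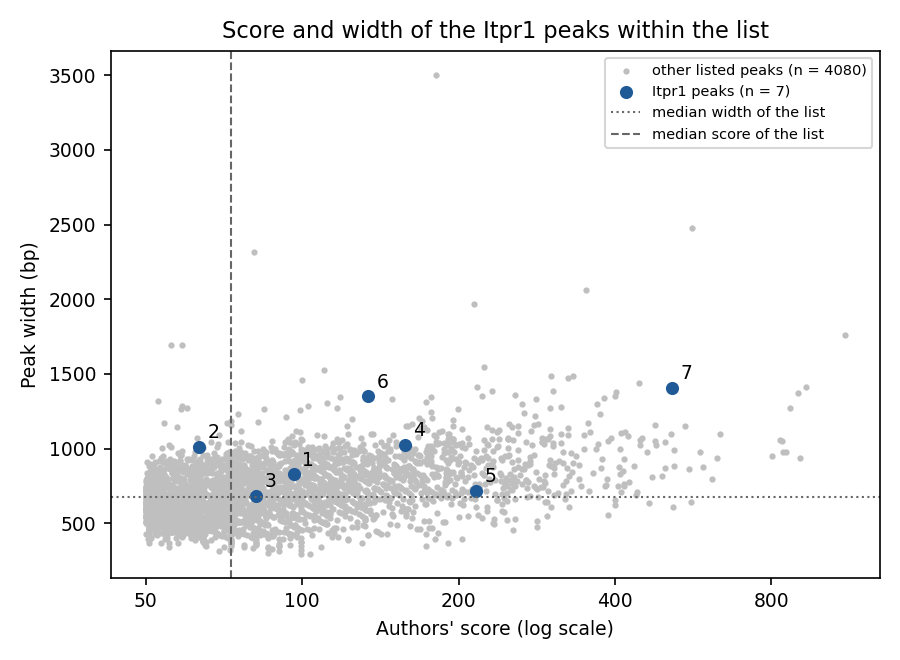
Authors' score (x axis, log scale) against peak width in bp (y axis) for the 7 Itpr1 peaks, numbered along the gene, and the other 4080 listed peaks in grey. Dotted and dashed lines mark the list medians of 678 bp and 72.8. Peak 7 stands at the upper right, peaks 2 and 6 lie high for their scores and peak 5 lies low for its score.

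Runs of neighbouring peaks were used to find the loci most like Itpr1. A run was a series of listed peaks with at most 50 kb between neighbours, and likeness was the number of peaks in it. There were 116 runs of 3 or more peaks, of which 10 held at least 5, and the Itpr1 run and 1 on chromosome 16 held 7 each. Runs of 6 were absent, and 8 runs held 5. The gap before peak 7, at 48.4 kb, was close to the 50 kb limit. Under a limit of 20 kb the Itpr1 run held peaks 1 to 6 over 40.6 kb, with a median score of 115 and a median width of 922.5 bp. At 20 kb no run of the list held 7 or more, and Itpr1 was the sole run of 6. Under a limit of 100 kb the Itpr1 run kept to 7 peaks while 8 runs held 7 or more, 4 of them with more peaks than Itpr1 and 9 at most, and the run on chromosome 16 held 8. The median gap within the run of 7 was 8.59 kb. Between neighbours over the list it was 278 kb, but a run has no gap above 50 kb by definition. In the other runs of 5 or more peaks the median gap ranged from 2.31 to 33.2 kb, with 11.2 kb on chromosome 16, so Itpr1 lay within their range.

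The chromosome 16 run, chr16:29758381-29852323, resembled the Itpr1 run in number, length and the scores of its top pair of peaks, and had fewer high and wide peaks besides. It spanned 93.9 kb against 90.4 kb, and its smallest gap was 257 bp in place of 244 bp. The second highest score there, 222, was above the 216.0 of Itpr1. Its median score was 83.9 and its median width 900 bp, the latter also above the list median of 678 bp. Of its 7 peaks, 2 scored at least 100 and 0 were at least 1000 bp wide, against 4 and 4 at Itpr1. Its highest peak scored 460 (rank 33) and was the fourth of the run, whereas the highest Itpr1 peak was the last. Another listed peak lay 58.2 kb from its edge. These are differences between a pair of loci chosen for their peak number, with no error on either.

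Among the 8 runs of 5 peaks, median scores ranged from 52.9 to 144 and highest scores from 69.0 to 630. The run with the highest single peak, chr1:77423373-77461819, had a median score of 55.9, so most of its peaks were close to the limit of the list. The run with the highest median score, chr2:168605326-168669131, had 3 peaks of at least 100 and none above 249. Over all 116 runs, 2 had a higher top score than Itpr1 and 10 a higher median score. No run had more than 4 peaks scoring at least 100, and 1 other had 4, chr12:81908101-81984634, whose 4 peaks scored from 188 to 284.5. As many as 4 peaks of at least 1000 bp were found in 1 other run, chr9:3003814-3036759. That run had no listed peak before it on its chromosome, a median width of 1764 bp and a median score of 86.9.

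**Figure D3:**
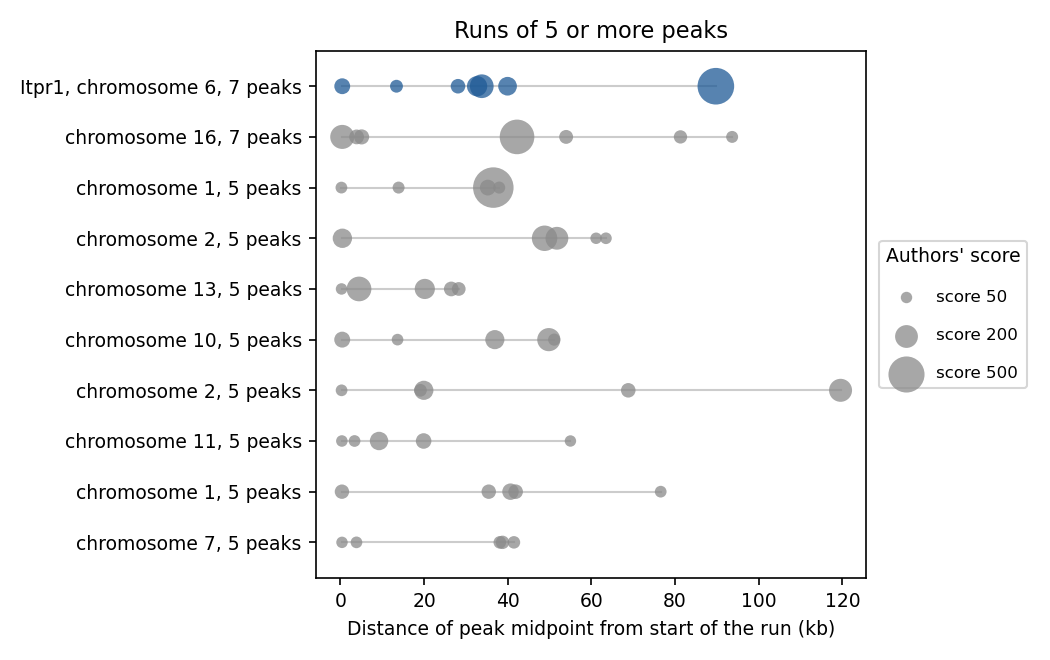
The 10 runs of 5 or more peaks, each on its own line, with the distance of peak midpoints from the start of the run in kb on the x axis and point area proportional to the authors' score. The Itpr1 run (blue) has its largest point at its far end, after 48.4 kb without a peak, while in the chromosome 16 run the largest point is the fourth.

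The Itpr1 run was set apart from other listed peaks on both sides. Of the 113 runs with a listed peak on either side, it had the longest distance to its nearer outside peak, 1679 kb, where the median was 152 kb. The distance from the outside peak on one side to that on the other, 5966 kb, was the second longest and the median was 644 kb. The longest, 6403 kb, surrounded chr6:128787758-128841762, a run of 3 peaks on the same chromosome with a top score of 80.0. These distances were examined after the list had been seen, and they describe the list as the authors called it.

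**Figure D4:**
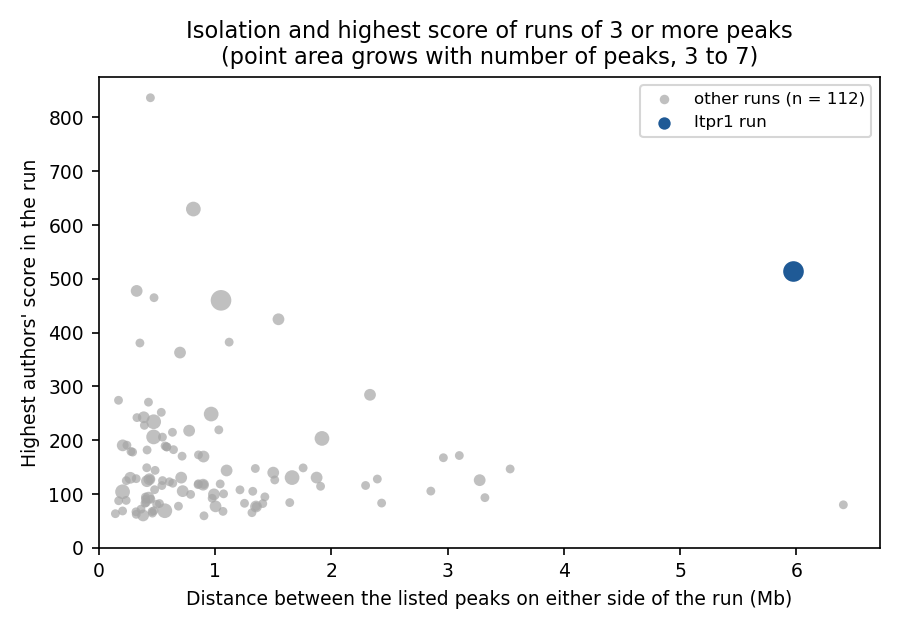
Distance in Mb between the listed peaks on either side of a run (x axis) against the highest authors' score in the run (y axis) for the Itpr1 run (blue) and the 112 other runs of 3 or more peaks with a listed peak on both sides (grey). Point area grows with the number of peaks in the run. Itpr1, at 5966 kb and a score of 515, lies far from the other runs, and the point to its right is the run of 3 with a top score of 80.0.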

How the data were processed

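ChIP DNA of 1 FLAG library and 1 input library of induced embryoid bodies was sequenced on the Genome Analyzer II, per the labels' protocols. The authors deposited 1 list of peaks of FLAG over input, called with MACS as the peak names show. CASAVA 1.4, FastQC and the build mm9 are named in the submitters' processing notes. For the aligner, the version and settings of MACS and any filter on reads, nothing is stated in these sources. The deposited score per peak has 2 decimals, is at least 50 and has no stated scale, so it was used to rank and filter peaks. Starts were read as 0-based and are printed 1-based.

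The members, lists and comparisons were chosen with earlier results of these data known. Every peak with its midpoint in the window was described. Gene limits on mm9 were taken as about 108163 and 108502 kb. The RefSeq table of GRCm38.p6 gave gene names and order alone. Genes of calcium release and E-boxes were planned and not analysed here, for want of an mm9 annotation and genome. No test was run, since each group has 1 library. Alternatives were other flanks, overlap in place of midpoint, a score limit of 100, joined peaks, other gap limits, other windows and leaving out the top member. The code that counts runs and windows was checked on simulated lists with planted runs, which serve as no comparison for the observed counts. Python 3.11.15, numpy 2.4.6, pandas 2.3.3, scipy 1.17.1 and matplotlib 3.10.9 were used.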

Additional observations from a re-analysis of the deposited data

How the results depend on the processing

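The window held 7 peaks with flanks of 0, 50 or 200 kb and with any overlap of 1 bp in place of the midpoint. Joining peaks less than 1 kb apart left 6 in the window and in the run. With peaks less than 10 kb apart joined, or with a score limit of 100, the window and the run each held 4. Gaps of at most 20 kb gave a run of 6, and gaps of at most 100 kb a run of 7, with 4 runs of more peaks elsewhere in the list. By the number of peaks in windows centred on listed peaks, the best Itpr1 window ranked 41st at 539 kb, 1st at 100 kb, 248th at 1000 kb and 247th at 539 kb with peaks less than 10 kb apart joined. The median score of 134 became 115 without peak 7, and the median width of 1014 bp became 922.5 bp without it. Both medians were as given for members inside the gene or in the run, which could not differ because all 7 peaks belong to each. The distance between outside peaks was 5966 kb. Joining peaks at 10 kb could not change it, as the outside peaks lay 1679 and 4197 kb away. Among peaks scoring at least 100 it was 13450 kb. That limit kept 28.6% of the list, which lengthens gaps in general, and the distance was not ranked among runs at that limit. Both alternatives were chosen after seeing the data. No paired analysis was possible because each group has 1 library. Depth is unknown, and no value separates Msgn1 binding from other differences between these libraries.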
